A study of Mus musculus with 62 samples.

Results

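The data described here were the regions of the mouse autosomes at which H3K9me3, trimethylation of lysine 9 of histone H3, differed between Daxx-KO and WT haematopoietic stem and progenitor cells (HSPCs) 3 weeks post induction (w.p.i.). CUT&Tag, in which an antibody directs a transposase to the chromatin that carries a mark, was run on lineage-negative, c-Kit+ bone marrow cells enriched on magnetic beads. The 2 Daxx-KO libraries came from Daxx F/F Cre +/- mice and the 2 WT libraries from Daxx +/+ Cre +/- mice, all of strain C57BL/6, so both groups carried Cre and had been induced. The floxed alleles lose exons of Daxx when Cre is active. The floxed strain was made in C57BL/6N and crossed to Cre lines in C57BL/6J. The study used both Rosa26CreERT2 with tamoxifen and Mx1Cre with pI:pC, and the driver behind these libraries is not given in the sources used here. Neither the share of cells that lost Daxx nor the identity of the cells can be read from H3K9me3: no changed site was listed within 50 kb of Spi1, and Kit, Cd34, Gata2 and Meis1 held none either.

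All members were taken by a rule on the table of changed sites for this comparison, which listed 62029 regions with 1 value for each library. The 57306 regions on chromosomes 1 to 19 were kept, and 4614 on X and 109 on Y were left out because both sexes were used in the study. The tables of the series held 1987591 regions in all. A site was called gained where each Daxx-KO library exceeded each WT library, and lost in the reverse case. By this rule 45021 sites (78.6%) were gained, 12058 (21.0%) were lost and 227 (0.396%) overlapped. Since the table lists only regions that had passed the authors' window test on the same libraries, these directions describe the list, and no test was run on them. With 2 libraries against 2, an exact two-sided permutation test at a single site cannot go below p = 0.333.

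H3K9me3 is the mark of silent chromatin: it is bound by HP1 proteins and covers satellite repeats, transposable elements, arrays of zinc-finger genes and the silenced copy of imprinted genes. Daxx is the chaperone that, with Atrx, places the histone variant H3.3 at such repeats and at telomeres, and in stem cells H3K9me3 at many transposable elements depends on Setdb1 and on Trim28, which zinc-finger proteins bring to DNA.

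The stretches that carry the results below are printed first, from GRCm38 (mm10), plus strand, 5′ to 3′. The opening pair comes from the middle of the gained and of the lost site with the widest separation between groups, and the last from the middle of the widest lost site, in Cdyl2; capitals mark CpG.
chr1:24613726-24614025, unprocessed pseudogenes near Col19a1, gained: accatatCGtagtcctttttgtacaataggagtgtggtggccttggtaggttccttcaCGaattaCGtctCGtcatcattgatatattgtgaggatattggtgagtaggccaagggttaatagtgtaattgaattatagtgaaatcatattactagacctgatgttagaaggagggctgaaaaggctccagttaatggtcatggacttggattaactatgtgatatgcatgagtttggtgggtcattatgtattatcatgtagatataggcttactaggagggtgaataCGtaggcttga
chr17:39845676-39845975, ribosomal RNA repeat, lost: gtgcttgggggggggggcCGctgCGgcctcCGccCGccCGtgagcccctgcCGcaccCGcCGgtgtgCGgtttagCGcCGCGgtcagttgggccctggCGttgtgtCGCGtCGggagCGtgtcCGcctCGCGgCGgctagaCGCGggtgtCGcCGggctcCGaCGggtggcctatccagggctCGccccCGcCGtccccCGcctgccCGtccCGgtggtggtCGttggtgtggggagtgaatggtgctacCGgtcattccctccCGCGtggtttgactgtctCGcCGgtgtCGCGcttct
chr8:116644676-116644975, Cdyl2 intron, lost: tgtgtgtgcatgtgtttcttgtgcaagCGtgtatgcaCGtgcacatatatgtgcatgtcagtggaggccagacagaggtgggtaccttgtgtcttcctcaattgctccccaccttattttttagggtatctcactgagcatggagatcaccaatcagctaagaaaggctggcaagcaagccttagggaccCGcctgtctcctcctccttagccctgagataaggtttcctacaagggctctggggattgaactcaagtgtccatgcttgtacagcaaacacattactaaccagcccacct

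The gained stretch holds 5 CpG in 300 bases and the lost ribosomal stretch 41. A further stretch shows an imprinted locus whose lost site holds the word TGCCGC, the core of the motif bound by Zfp57, which recruits Trim28 to imprinted DNA. Its label names Igf2r because that gene has the nearest protein-coding transcript start, which does not place the site outside Igf2r. Capitals mark TGCCGC or its complement GCGGCA.
chr17:12742331-12742630, Airn intron near Igf2r, lost: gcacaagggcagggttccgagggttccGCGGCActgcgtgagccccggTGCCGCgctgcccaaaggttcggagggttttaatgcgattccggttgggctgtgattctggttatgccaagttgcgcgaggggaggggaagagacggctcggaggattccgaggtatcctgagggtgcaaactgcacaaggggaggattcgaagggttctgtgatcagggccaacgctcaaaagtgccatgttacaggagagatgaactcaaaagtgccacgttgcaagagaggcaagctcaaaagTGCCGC

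Values are normalized counts: the reads of a site divided by a constant for its library, as deposited. The libraries were shallow, with a mean of 1.58 and 1.21 reads per 600-base window in Daxx-KO replicates 1 and 2 and of 1.75 and 3.00 in WT replicates 1 and 2, and 1 read was worth 1.16, 1.67, 0.877 and 0.581 normalized counts. WT replicate 2 was the deepest library and came from a mouse numbered apart from the other 3. Without it, on the same list, 45079 sites were gained and 12063 were lost. Under the rule, leaving out a library can only keep or raise these counts, so they do not show the part of that library. Depth and genotype therefore move together in part, since both Daxx-KO libraries were shallower than both WT libraries; the part of depth in the results was not tested.

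The gains were many and low in normalized counts, although their ratios were larger than those of the losses. At gained sites the medians of Daxx-KO replicates 1 and 2 were 15.1 and 16.7 normalized counts and those of WT replicates 1 and 2 were 2.63 and 3.48, which stands for 13, 10, 3 and 6 reads. The median log2 ratio of the group means was 2.35, with a group at 0 set to the value of 3 reads per library, so that 2.72% of gains, those with no WT read, entered as lower bounds. Lost sites lay higher: the WT replicates had medians of 28 and 26.7 normalized counts (32 and 46 reads) and the Daxx-KO replicates of 5.81 and 6.67, with a median log2 ratio of -1.63. Both Daxx-KO libraries had no read at 2523 lost sites (20.9% of losses), which also entered as bounds.

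Direction turned with the size of the difference in normalized counts, a measure that favours sites with high counts and is not a ratio. The gap, the distance between the lowest library of the higher group and the highest of the lower group, had a median of 8.70 normalized counts at gains and 15.6 at losses. Below a gap of 10, 28926 sites were gained and 3230 were lost. From 50 upward 362 were gained and 1246 were lost, so that 77.5% of the sites with the widest gaps were losses. The same held for extent: of the sites of 5 kb or more, 29 were gained and 92 were lost.

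**Figure D1:**
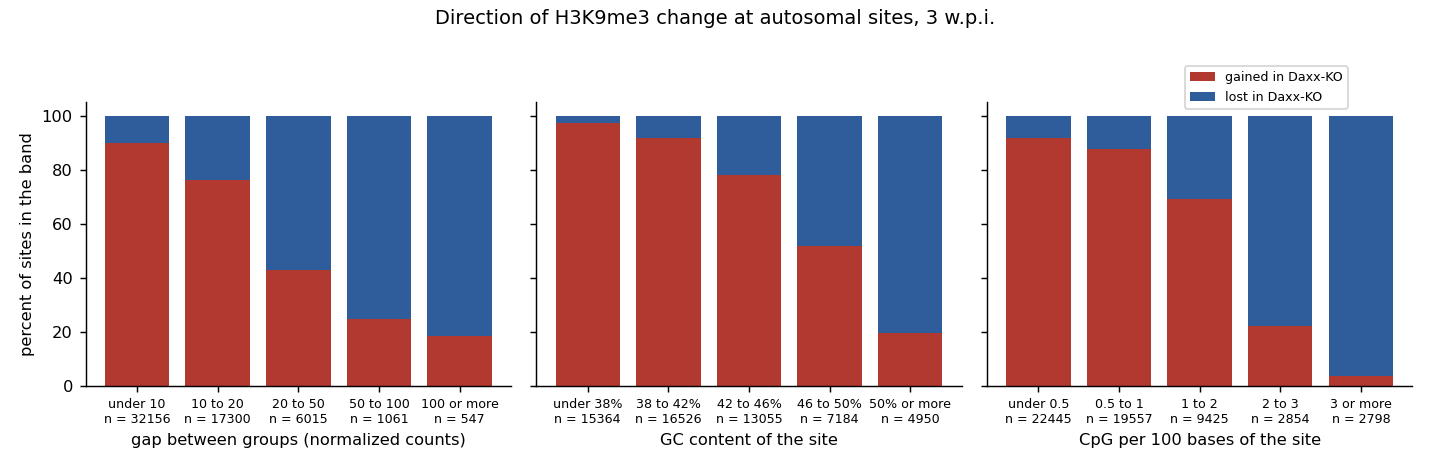
Percent of sites gained (red) and lost (blue) in bands of the gap between groups in normalized counts, of GC content and of CpG per 100 bases, with the number of sites in each band under its bar. Losses make up 10.0% of the sites with the smallest gap and 81.5% of those with a gap of 100 or more, and their share climbs from 2.62% to 80.5% over the GC bands and from 8.30% to 96.5% over the CpG bands.

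Gained and lost sites differed in base composition. The median GC content of gained sites was 39.8%, below the 41.8% of all autosomal 600-base windows, and their median CpG count was 0.5 per 100 bases against 0.667. Lost sites had 47.6% GC and 1.5 CpG per 100 bases. Of the sites with at least 3 CpG per 100 bases, 98 were gained and 2700 were lost: this class held 22.4% of losses, 0.218% of gains and 2.08% of windows. Below 38% GC the picture was the reverse, with 14962 gains and 402 losses. Bases that the reference marks as repeats made up a median of 60.3% of a lost site, 34.9% of a gained site and 23.8% of a window, and reads from such bases may belong to near-identical copies elsewhere, so a position within them is uncertain.

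Words were counted in the middle 600 bases of each site, on both strands. TGCCGC (or GCGGCA) was found at 14.3% of lost sites, 1.69% of gained sites and 3.64% of windows. The word contains a CpG, in which lost sites were rich, and some lost sites were copies of shared sequence. The part of either in its frequency was not tested. TTAGGG (or CCCTAA) was found at 22.1% of lost sites, 22% of gained sites and 21.1% of windows, so a single copy was about as frequent at losses and gains as in the genome. At least 5 copies stood in 19 lost sites (0.158%), 13 gained sites (0.0289%) and 0.0186% of windows, a share that was higher at losses. GGAA (or TTCC), the core of the Ets motif that Pu.1 binds, was near saturation, at 99.1% of lost sites, 99.7% of gained sites and 99.7% of windows. The site with the most copies of the telomere word, 60, at chr2:182012601-182013700 near Gm14496, held 986 and 1030 in Daxx-KO against 1066 and 1053 in WT, a gap that was small beside its level.

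Both directions lay mostly between genes, with 66.3% of gains (29843 sites) and 61.6% of losses (7431) against 49.8% of windows. Promoters, taken as 1 kb around a transcript start, held 1360 gains (3.02%, 95% Wilson interval 2.87 to 3.18) and 685 losses (5.68%, 5.28 to 6.11). Both shares were under the 6.30% of windows. The share was larger for losses, although gains outnumbered losses at promoters. Introns held 12415 gains (27.6%) and 3273 losses (27.1%) against 37% of windows. Intervals cover counting error only, since sites share libraries.

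Among 20807 autosomal protein-coding genes, 3193 had gained sites alone in the gene or within 5 kb, 1101 had lost sites alone, 1060 had both and 15453 had neither. The genes with the most gains were long, from 871 to 2271 kb, and several encode neuronal proteins: Ptprt, a receptor tyrosine phosphatase, with 149 gained and 6 lost sites, Macrod2 with 122 and 5, Dpyd, the first enzyme of pyrimidine breakdown, with 103 and 4, Ptprd with 87 and 7, Lsamp with 87 and 11, the cadherin Pcdh15 with 85 and 6, Gpc5 with 84 and 5, Agbl4 with 81 and 4, the glutamate receptor Grm7 with 78 and 4, and Csmd1 with 77 and 22. Ptprt carried 13 gained sites per 100 kb and Ptprd 3.81, while the autosomes as a whole carried 1.83. The best separated site in Macrod2, chr2:141464351-141466700, held 164 and 118 normalized counts for Daxx-KO against 59.5 and 55.1 in WT. In Lsamp, chr16:41290701-41292200 held 32.6 and 25.0 against 1.75 and 1.16. The libraries of each group lay close to each other at both sites.

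The genes with the most losses were others, Csmd1 apart. Gm42416, Gm37013 and Gm37388, with 30, 28 and 28 lost sites, are gene models that overlap one another across the clustered protocadherins of chromosome 18, so they count the same sites. Cpq, a carboxypeptidase, had 27 lost and 10 gained sites. Cdyl2, a chromodomain protein that binds methylated H3K9, had 24 lost and no gained site in 159 kb, or 14.2 per 100 kb against 0.490 for the autosomes. Camkmt, a calmodulin methyltransferase, had 24 and 1, the methyltransferase Smyd3 22 and 9, the Rac activator Tiam1 20 and 3, Csmd1 22 and 77, and the long model Gm20388 19 and 17. In Tiam1 the best separated site, chr16:90008951-90012850, held 11.6 and 3.33 in Daxx-KO against 116 and 169 in WT.

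Some wide losses in genes left almost no signal in Daxx-KO. The site chr8:116634751-116654900, 20.2 kb of Cdyl2, held 20.9 and 26.7 normalized counts for Daxx-KO against 1076 and 1081 in WT. In Smyd3, chr1:179430801-179439350 held 32.6 and 20.0 against 880 and 837. In Camkmt, chr17:85222101-85227550 held 29.1 and 20.0 against 266 and 313. The libraries of a group lay close to each other at all 3, and the groups were 11.8-fold or more apart.

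Other sites of this kind, chosen after their values were seen, were found in Nrros, which restrains reactive oxygen species in phagocytes (chr16:32141851-32148200, 0 and 8.33 against 289 and 234), Arl15 (30.2 and 35.0 against 719 and 921), Ttn, the giant protein of muscle (69.8 and 73.3 against 1493 and 1722), Zfhx3 and Ahnak2. In all, 18 wide losses were at least 8-fold lower in Daxx-KO, from 9.86-fold to 62.8-fold, and 5 of them lay in Cdyl2 and 2 in Smyd3. Of these, 17 overlapped a lost H3K9me3 site at 8 w.p.i. and 16 a lost site alone at 24 w.p.i., in other mice. The floxed strain and the Cre lines had different backgrounds, as given above, and the part of strain background in these losses was not tested. At Cdyl2 the 8 w.p.i. values over chr8:116631151-116656100 were 44.3, 12.9 and 66.8 in Daxx-KO against 1690, 1248 and 1094 in WT. At Nrros they were 47, 18.4 and 24.1 against 442, 224 and 386. No group overlapped the other at either locus. Ahnak2 was the exception: its site at 3 w.p.i. held 69.8 and 117 in Daxx-KO against 1789 and 1950 in WT, the only site listed there at 8 w.p.i. was a small gain (9.94, 7.36 and 8.02 against 3.16, 0 and 2.5), and over the same stretch H3.3 was 1522 and 1662 in Daxx-KO against 67.3 and 233 in WT.

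Many wide losses shared sequence. They included 1 of the 18 losses of at least 8-fold, chr5:24771601-24776800 near Crygn (10.5 and 26.7 in Daxx-KO against 199 and 191 in WT). Sites of 5 kb or more were joined where at least 30% of the 16-base words of the one with fewer words were found in the other, and 52 of the 92 wide losses and none of the 29 wide gains fell into groups of at least 3. The largest had 46 lost sites on 17 chromosomes, with a median length of 7.63 kb, 53.3% GC and 3.54 CpG per 100 bases. Their medians were 181 and 183 normalized counts for Daxx-KO against 714 and 793 in WT, a median 4.08-fold difference that ranged from 2.19 to 7.55-fold. Over the whole list, 99 lost sites and 1 gained site had at least 50% of their words in this group. The other 2 groups had 3 wide sites each, but their words were carried by 125 lost and 0 gained, and by 326 lost and 3 gained sites. Reads cannot be assigned to a single copy within such groups, so the 46 values are not independent.

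**Figure D2:**
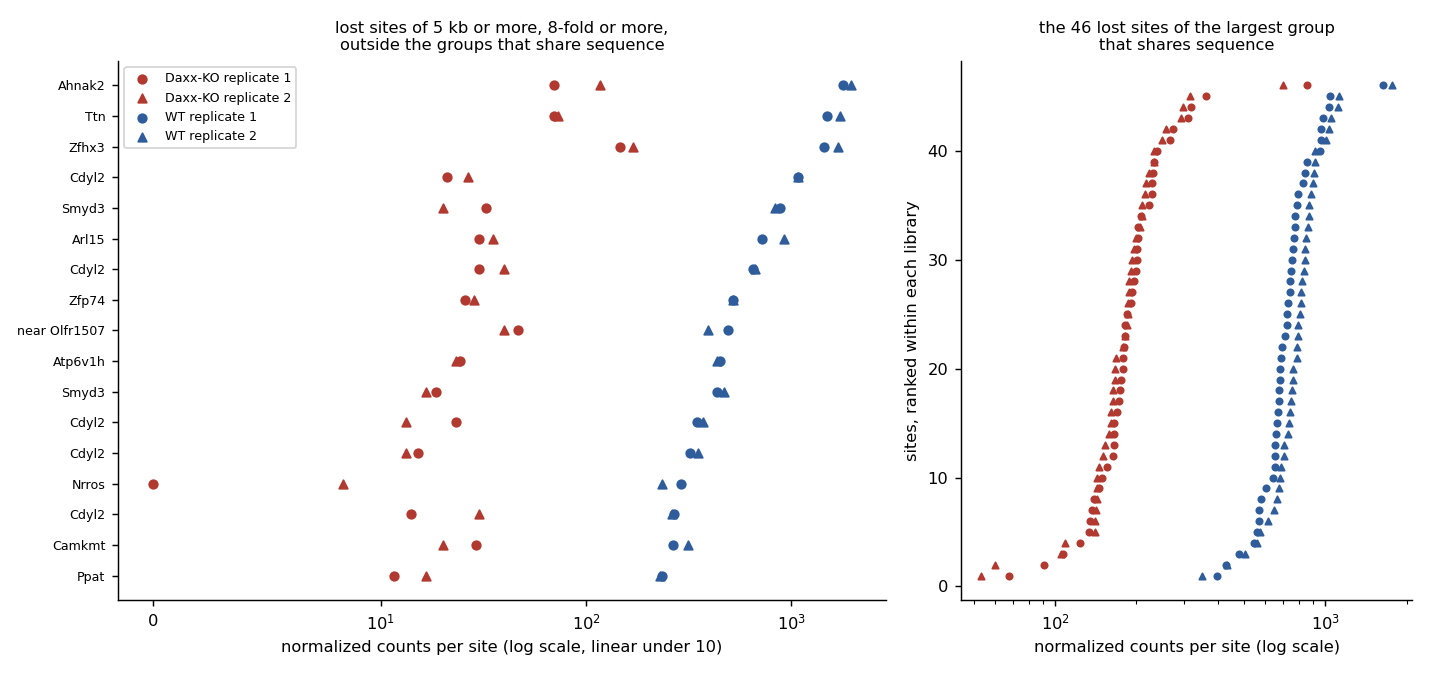
Normalized counts per library (Daxx-KO red, WT blue, circle replicate 1, triangle replicate 2) at wide lost sites. Left, the 17 sites with at least an 8-fold difference outside the sequence-sharing groups, labelled by gene, where the Daxx-KO libraries lie far to the left of the WT libraries; right, the 46 sites of the largest sequence-sharing group, ranked within each library, where the libraries of a group run together about 4.08-fold apart.

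Ranked by gap, the lost sites led with multi-copy sequence. The first was the ribosomal RNA repeat at chr17:39842451-39849200, with 14026 and 11049 normalized counts for Daxx-KO against 34837 and 34868 in WT. Next came a repeat-masked stretch at chr13:74528801-74531450 near Zfp825 (7930 and 6213 against 18667 and 11156), Flg2 at chr3:93202201-93220000, a gene of the skin barrier made of tandem repeats (3943 and 3393 against 7130 and 8402), AW822073 at chr10:58220951-58229100 (2037 and 1675 against 4996 and 5507), Gm10719 at chr9:3017601-3019000, a stretch of 94.9% masked bases at the start of the chromosome (26181 and 31203 against 34778 and 33794) and Duxf3, from the array of Dux transcription factors (1197 and 1002 against 3182 and 3359). The groups stood 2.78-fold apart at the ribosomal repeat but only 1.20-fold at Gm10719.

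The first gained site was chr1:24611001-24616750, 26.4 kb from Col19a1, which covers 7 unprocessed pseudogenes: 27635 and 28148 in Daxx-KO against 11575 and 6719.8 in WT. They are near-identical to mitochondrial DNA, so the source of these reads is uncertain. Another run of 3 pseudogenes, in Myo3a at chr2:22587001-22590700, held 1386 and 1233 against 362 and 277. The remaining 4 were Enpp3, an ectonucleotidase of basophils and mast cells, over 16.9 kb (1194 and 1277 against 268 and 249.9), a stretch near Zfp709 (1726 and 1855 against 883 and 861), chr9:124255851-124258550 (1263 and 1253 against 285 and 426) and Clec2e, a lectin of the natural killer complex (1127 and 1242 against 354 and 318). At Enpp3, 5 sites were gained at 8 w.p.i. and 6 at 24 w.p.i. and none was lost. At the Myo3a pseudogenes the 8 w.p.i. libraries overlapped, with Daxx-KO replicate 3 at 334 and the other 5 between 24.8 and 95.8 in the longest stretch.

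Gained sites also came in long runs. Runs joined neighbours of 1 direction at most 10 kb apart, and 58.6% of gains and 43.8% of losses lay in runs of at least 2 sites. The longest, chr17:14294751-14501050, had 61 gained sites over 206 kb at Smoc2, a matricellular protein, with medians of 18.6 and 16.7 in Daxx-KO against 1.75 and 2.32 in WT. Of its sites, 39 overlapped a gain at 8 w.p.i. and 55 a gain at 24 w.p.i., and none a loss at either time. The second, chr2:171637851-171791500, had 32 sites and no protein-coding gene, and 18 overlapped a gain at 8 w.p.i., while 4 overlapped a gain and 10 a loss at 24 w.p.i. The third, chr17:13024701-13151650 with Sod2, Tcp10b and Unc93a, had 39 sites, of which 32 and 37 overlapped a gain at 8 and 24 w.p.i. and 11 a loss of H3K27ac. These runs made chromosome 17, 13 to 15 Mb, the densest place of the list: the 2 bins of 1 Mb held 164 and 157 gained and 10 and 1 lost sites. Hs3st4, which modifies heparan sulphate, held 45 of the 117 gains at 124 to 125 Mb of chromosome 7, and bins without a protein-coding gene at 159 to 160 and 171 to 172 Mb of chromosome 2 held 129 and 127.

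Lost runs were shorter. The longest, chr7:59684551-59805250, had 30 sites over 121 kb of small nucleolar RNA copies in the imprinted Prader-Willi region, with medians of 59.3 and 54.2 in Daxx-KO against 105 and 107 in WT. None of them overlapped a loss at 8 or 24 w.p.i., 13 overlapped a gain at 24 w.p.i. and 22 a gain of H3.3. The Cdyl2 run, chr8:116619901-116730100, had 23 sites, of which 20 and 13 overlapped a loss at 8 and 24 w.p.i. The third, chr7:42853151-42917200, had 15 sites at Vmn2r63, and 6 and 8 overlapped a loss at 8 and 24 w.p.i. The densest bins of losses were on chromosome 12, at 18 to 19, 19 to 20, 20 to 21 and 22 to 23 Mb with 60, 79, 55 and 55 lost and 47, 17, 48 and 26 gained sites, and at 42 to 43 Mb of chromosome 7 with 55 lost and 32 gained.

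**Figure D3:**
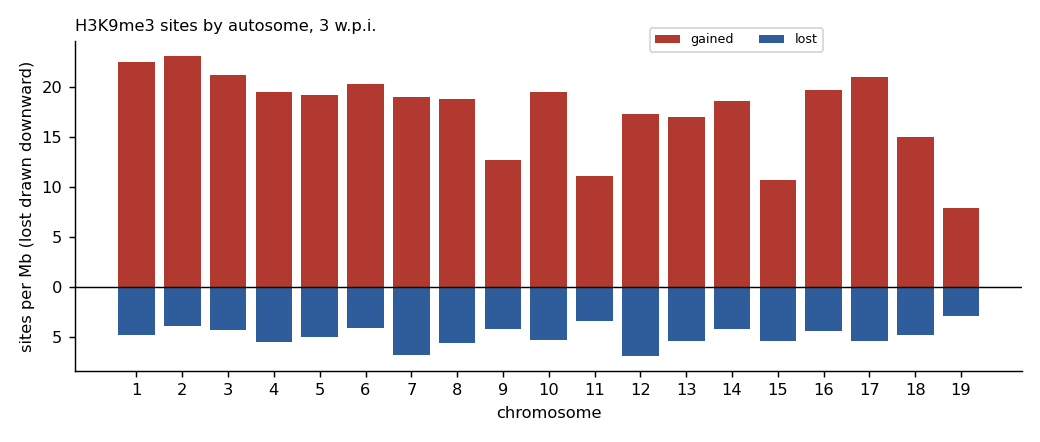
Gained sites per Mb (red, upward) and lost sites per Mb (blue, downward) for each autosome. Gains range from 7.90 per Mb on chromosome 19 to 23.1 on chromosome 2, and losses from 2.91 on chromosome 19 to 6.89 on chromosome 12.

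The share of gains ran from 66.2% on chromosome 15 to 85.5% on chromosome 2. Within 5 Mb of Daxx on chromosome 17, 78 sites were gained and 83 were lost (48.4% gained), against 1917 and 435 on the rest of the chromosome (81.5%). Windows near Daxx had a median GC content of 45.3% against 42.2% on the rest, and the groups carry different Daxx alleles by design, so genotype and this flank cannot be told apart. A lost site lay 1761 bp from Daxx, chr17:33917351-33917950, with no read in either Daxx-KO library and 8.75 and 8.12 normalized counts in WT.

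Gene families described by 25 lists differed in direction. A site was counted where it lay in a member gene or within 5 kb, and all lists together held 1851 gained and 680 lost sites. Chemosensory receptor genes held a small part of the gains. Olfactory, vomeronasal and bitter taste receptors (Tas2r) held 1.37%, 0.824% and 0.0622% of them, beside 0.813%, 0.501% and 0.0165% of the autosomes with their flanks. Olfactory receptors had 615 gained and 95 lost sites (86.6% gained, beside 78.6% of all sites) and bitter taste receptors 28 and 0. Vomeronasal receptors had 371 and 82, a share of 81.9% that lay near that of all sites. Near but outside Olfr1307, chr2:111951801-111953750 held 67.4 and 61.7 in Daxx-KO against 16.6 and 18.0 in WT. Vmn2r97 at chr17:18932151-18936600 held 251 and 285 against 87.5 and 107. A site near but outside Tas2r121 held 27.9 and 33.3 against 9.63 and 12.2. Some members had mainly losses: Olfr248 and Vmn2r-ps111 had 3 lost and no gained site each, and Vmn2r63 had the most, with 9 lost and no gained site and 69.8 and 90 in Daxx-KO against 189 and 165 at its best separated one.

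Epithelial and defence families differed in their share of gains. Skint genes, which select epidermal T cells, had 93 gained and 11 lost sites (89.4% gained), 39 of the gains in Skint5 and 28 in Skint6. Keratin and keratin-associated genes had 41 and 3 (93.2% gained), defensins 36 and 4 (90%), and Pramel and Oog genes of the oocyte 15 and 2 (88.2%), beside 78.6% of all sites. Cytochrome P450 genes, with 85 and 26 (76.6% gained), lay just under the share of all sites, and Cyp3a25 held 51.2 and 51.7 against 23.6 and 22.6 at its best separated site. Serpins, with 16 and 14 (53.3% gained), lay well under it. Serpina1b showed both directions within 1 gene: 27.9 and 20.0 against 5.25 and 7.54 near its start, and 23.3 and 45.0 against 126 and 133 at a lost site.

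Zinc-finger genes named Zfp, Zkscan or Zscan had 320 lost and 353 gained sites (52.5% gained). With a mean of at least 20 normalized counts in the higher group, losses became the majority, with 256 lost and 232 gained. They held 2.65% of losses, 0.784% of gains and 0.720% of the autosomes with their flanks, and their losses had a median gap of 26.7 normalized counts beside 15.6 for all losses. At 8 w.p.i., 142 of the 320 were lost again, and 24 of the 353 gains were gained again. Over all autosomal sites of 3 w.p.i., 18.4% of losses overlapped a loss alone at 8 w.p.i. and 10.5% of gains a gain alone. Zfp951 had 16 lost and 3 gained sites, with 291 and 310 in Daxx-KO against 476 and 497 in WT at the best separated one. Zfp125 had 11 and 1 (215 and 233 against 554 and 538), and Zfp992 10 and 0 (893 and 768 against 1454 and 1440.2). Zfp804b showed the other pattern, with 15 gained and 2 lost sites. Zfp935 had 9 gained and 6 lost sites, with 213 and 307 against 138 and 149 at a gained one. Reads from these genes may be shared among paralogs.

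Clustered protocadherins, the cell-surface barcodes of neurons, had 25 lost and 14 gained sites (35.9% gained, beside 78.6% of all sites). They held 0.207% of losses, 0.0311% of gains and 0.0275% of the autosomes with their flanks. At Pcdha1 and Pcdha2, whose spans overlap, chr18:37021501-37022950 held 2.33 and 0 in Daxx-KO against 34.1 and 32.5 in WT, while at the Pcdhga genes a site at chr18:37756151-37756750 held 105 and 78.3 against 48.1 and 54.5. Speer genes had 9 lost and 6 gained sites (40% gained). Hox genes, the body-plan regulators, had 4 and 4 (50% gained). A Hoxa3 to Hoxa6 site, chr6:52205101-52207250, held 6.98 and 10.0 against 78.8 and 100.3, and a Hoxd11 to Hoxd13 site held 14.0 and 20.0 against 0 and 0.58. Histone genes had 1 lost site, or 0.0083% of losses beside 0.014% of the autosomes with their flanks. It lay at chr13:21812651-21819500 near Hist1h2ao, belonged to the sequence-sharing group of 46 and held 149 and 162 in Daxx-KO against 571 and 615 in WT.

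**Figure D4:**
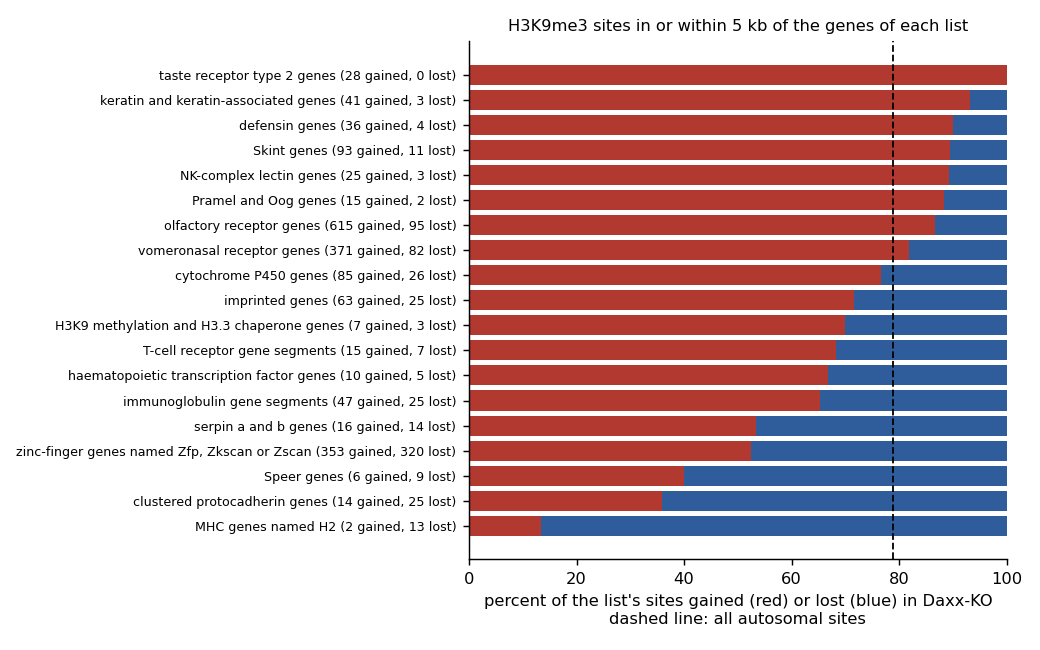
Percent of sites gained (red) and lost (blue) in or within 5 kb of the genes of each list, for lists with at least 10 sites, with counts beside the names and a dashed line for all autosomal sites that had a direction. Taste receptor genes hold 28 gained and 0 lost sites, MHC genes 2 gained and 13 lost, and zinc-finger genes 353 and 320.

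Immune loci split. Lectin genes of the natural killer complex had 25 gained and 3 lost sites (89.3% gained), led by Clec2g with 6, where chr6:128930301-128935450 held 572 and 517 in Daxx-KO against 245 and 201 in WT. MHC genes named H2 had 2 gained and 13 lost sites (13.3% gained), or 1 and 3 in gene bodies alone. Of the losses, 5 were at H2-T24, with 6.98 and 8.33 against 44.6 and 55.1 at the best separated one. The H2 genes lie in the stretch around Daxx described above. A site outside H2-Q4 held 33.7 and 18.3 against 113 and 132, while a site outside H2-Q10 was gained with 55.8 and 51.7 against 7.88 and 24.9. Immunoglobulin segments had 47 gained and 25 lost sites (65.3% gained, under the 78.6% of all sites), but 3 gained and 6 lost in gene bodies alone. T-cell receptor segments had 15 and 7 (68.2% gained), or 1 and 0 in gene bodies alone. A gained site near Trbv21 held 177 and 235 against 63 and 76.0 and a 5.75 kb lost site near Trav4-1 held 46.5 and 40.0 against 493 and 394. Interferon alpha and beta genes had 1 and 1, nucleic-acid sensors and interferon response genes 1 and 0, and neutrophil granule and myeloid genes 1 and 2. These lists held 0.0022% of gains each and 0.0083%, 0% and 0.0166% of losses, beside 0.011%, 0.0336% and 0.019% of the autosomes with their flanks. The 2 myeloid losses lay near the Fc receptor Fcgr3 but outside its body (126 and 91.7 against 198 and 245 at the better separated one).

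At imprinted genes 63 sites were gained and 25 were lost (71.6% gained, under the 78.6% of all sites). The genes with the most gains were Usp29 with 17 and Kcnq1 with 13, shared with its antisense Kcnq1ot1, where chr7:143218201-143219750 held 76.7 and 66.7 in Daxx-KO against 17.5 and 11 in WT. Losses were found at imprinted genes too. At Gnas and Nespas, chr2:174285051-174286700 held 22.1 and 23.3 against 86.6 and 115. In an Airn intron, chr17:12742051-12742850 held 10.5 and 8.33 against 27.1 and 37.1. Airn had 4 lost sites and no gained one. The protein-coding transcript start nearest to this site is that of Igf2r, so it is called the Igf2r site. Nnat, a neuronal proteolipid inside an intron of Blcap that, like Igf2r, was chosen after its values were seen, was lost with 11.6 and 13.3 against 33.3 and 41.8. The Igf2r site, printed in part above, held 4 copies of TGCCGC or its complement. At 24 w.p.i. both were gained, with 356 and 315 in Daxx-KO against 154 and 169 in WT at Nnat and with 117 and 108 against 63.7 and 20.6 at Igf2r, and neither was listed at 8 w.p.i.

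Genes of blood and of the chaperone pathway held few sites. Haematopoietic transcription factor genes held 0.0222% of gains and 0.0415% of losses, beside 0.182% of the autosomes with their flanks. For H3K9 methylation and H3.3 chaperone genes these were 0.0155%, 0.0249% and 0.0897%, and for gluconeogenesis and glycolysis genes 0.0155%, 0.0166% and 0.0411%. The shares gained were 66.7%, 70% and 77.8% in this order, beside 78.6% of all sites. Haematopoietic transcription factor genes had 10 gained and 5 lost, or 1 and 2 with a mean of at least 20 normalized counts in the higher group. They included Ebf1, the B-cell factor, with 3 gained sites and low counts of 11.6 and 13.3 in Daxx-KO against 1.75 and 2.32 in WT at the best separated one. Bcl11b, the T-cell factor, had 2 lost and 1 gained site, with 3.49 and 6.67 against 59.5 and 58.0 at a lost one. H3K9 methylation and H3.3 chaperone genes had 7 and 3, with 0 of the losses in gene bodies. A site in Setdb2 was gained (22.1 and 23.3 against 7 and 3.48) and a site near but outside the demethylase Kdm4a was lost (17.4 and 11.7 against 52.5 and 44.6). Gluconeogenesis and glycolysis genes had 7 and 2, with 4 gains at hexokinase Hk1. Of these, the start of Fbp2, a fructose-bisphosphatase, was covered by a gained site at chr13:62857301-62859350 with 131 and 108 in Daxx-KO against 43.8 and 52.8 in WT, beside another at chr13:62855601-62857250 with 54.7 and 58.3 against 14 and 22. At 24 w.p.i. a site over both, chr13:62853801-62858800, held 2345 and 1614 against 424 and 399. At 8 w.p.i. chr13:62854151-62855700 was gained (44.3, 46.9 and 29.4 against 3.16, 5.06 and 2.5), while at chr13:62856501-62857500 the groups overlapped (56.1, 46.9 and 16 against 9.48, 9.28 and 16.2). Near Fbp1, its neighbour, chr13:62890901-62891650 held 11.6 and 21.7 against 2.63 and 3.48.

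Whether the sites of 3 w.p.i. had a counterpart later was read from H3K9me3 in other mice, 3 against 3 at 8 w.p.i. and 2 against 2 at 24 w.p.i. By the same rule 57.6% of the autosomal sites listed at 8 w.p.i. were gained and 31.5% lost, and at 24 w.p.i. 46.9% and 50.3%. Most sites had no counterpart: 13.7% of gains and 23.5% of losses overlapped a directed site at 8 w.p.i., and 18.3% and 36.6% at 24 w.p.i. Among gained sites, 4713 overlapped a gain alone at 8 w.p.i. and 1400 a loss alone (77.1% gain, Wilson interval 76.0 to 78.1, beside 64.7% over the directed sites of that table). Among lost sites, 2215 overlapped a loss alone and 608 a gain alone (78.5% loss, 76.9 to 79.9, beside 35.3%). At 24 w.p.i. the losses were found again as losses at 3199 sites and as gains at 1086 (74.7% loss, beside 51.8%), but gained sites overlapped 3629 gains and 4384 losses (45.3% gain, beside 48.2%). The gains of 3 w.p.i. as a body thus had no share of gains at 24 w.p.i. above that of the table.

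Sites that were better separated had a counterpart more often. Of the 362 gains with a gap of at least 50, 219 overlapped a gain alone and 5 a loss alone at 8 w.p.i., and 210 and 40 at 24 w.p.i. For the 1246 losses of that size the counts were 592 losses and 17 gains, then 678 and 113. Among the gains with a gap below 10, 1709 overlapped a gain and 2332 a loss at 24 w.p.i. Of the 29 wide gains, 28 were gained at 8 w.p.i. and 26 at 24 w.p.i. and none was lost alone at either. Of the 92 wide losses, 77 and 81 were lost again. The same direction at all 3 times was seen at 986 gained sites (2.19%) and 1196 lost sites (9.92%), with a median gap of 14.9 and 37.2.

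The direction found later at gained sites also differed with their GC content, and at 24 w.p.i. lost sites tilted the same way. The share of gains by GC content over all sites listed at each time was not computed. A tilt of those lists as a whole therefore cannot be told apart from one at these sites. Below 38% GC, 382 gained sites overlapped a gain and 1131 a loss at 24 w.p.i. (25.2% gain, Wilson interval 23.1 to 27.5), and from 50% GC upward 277 and 89 (75.7% gain, 71 to 79.8). At 8 w.p.i. the shares were 66.8% and 94.9%. For lost sites the share of losses at 24 w.p.i. was 90% below 38% GC (63 losses and 7 gains) and 63.6% from 50% upward (926 and 530).

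**Figure D5:**
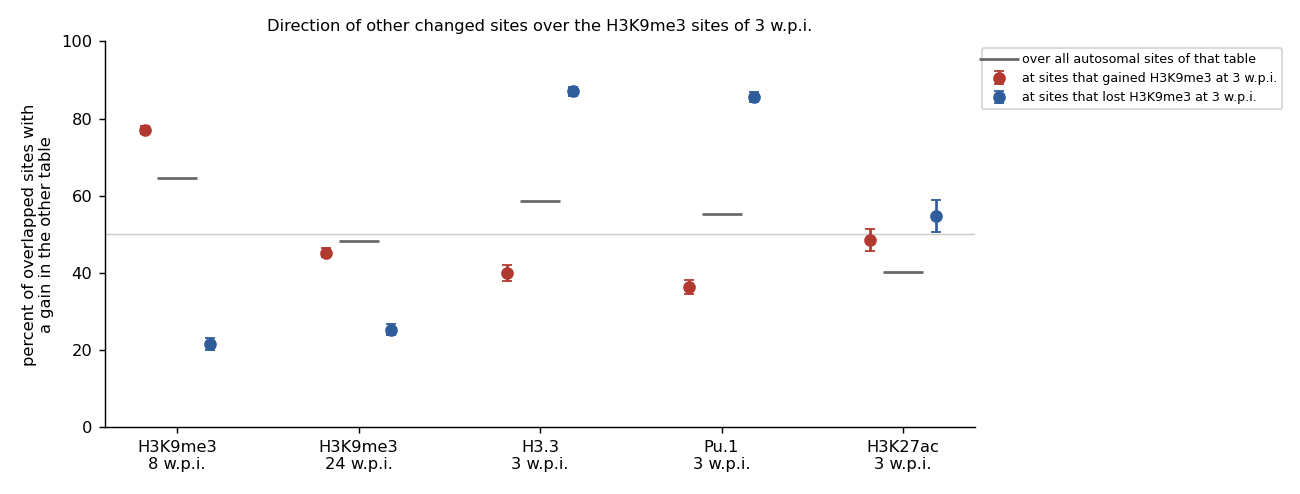
Among H3K9me3 sites of 3 w.p.i. that overlapped a directed site in another table, the percent that overlapped a gain there, for sites that gained (red) and lost (blue) H3K9me3, with 95% Wilson intervals; grey bars give the share over all directed autosomal sites of that table. Sites that lost H3K9me3 overlapped gains of H3.3 in 87.1% and of Pu.1 in 85.6%, and later gains of H3K9me3 in 21.5% at 8 w.p.i. and 25.3% at 24 w.p.i.

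Other proteins were mapped at 3 w.p.i., H3K27ac, a mark of active promoters and enhancers, in the same 4 mice, and H3.3 and the myeloid transcription factor Pu.1 in mice that shared 1 WT animal with them. Of autosomal sites, 57.7% were gained and 40.7% lost for H3.3, 54.1% and 44.0% for Pu.1, and 39.2% and 58.4% for H3K27ac. Of the lost H3K9me3 sites, 2596 overlapped a gain of H3.3 alone and 385 a loss alone, which is 87.1% gain beside 58.7% over the directed H3.3 sites. For Pu.1 the counts were 2719 and 457 (85.6%, beside 55.2% over its directed sites). Gained H3K9me3 sites leaned the other way, with 852 gains and 1276 losses of H3.3 (40.0%) and 901 and 1577 of Pu.1 (36.4%). H3K27ac overlapped few sites in either direction, with 581 gains and 615 losses at gained and 312 and 257 at lost H3K9me3 sites. These were 48.6% and 54.8% gain, beside 40.2% over the directed H3K27ac sites. The share at gained sites became 60.9% with a mean of at least 20 normalized counts in the higher group. That cut was also applied to the H3K27ac sites, and their overall share of gains under it was not computed.

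Lost sites with an H3.3 gain were rich in repeats and CpG: their median was 52.1% GC, 3.11 CpG per 100 bases and 93.0% masked bases, against 46.3% GC, 1.2 CpG and 55.2% masked bases at lost sites without an H3.3 site. All 46 sites of the largest sequence-sharing group overlapped a gain of H3.3 and a gain of Pu.1. At the ribosomal repeat H3.3 was 21300 and 37208 in Daxx-KO against 12907 and 9769.9 in WT over chr17:39843851-39847800. Near Zfp825 it was 20199 and 31623 in Daxx-KO but 145 and 10200 in WT, so the H3.3 libraries of the WT group were far apart there. Pu.1 there was 31001 and 21045 in Daxx-KO but 181 and 7499 in WT, with the same WT spread. The part of these libraries, and of the placing of reads from repeats, in the overlap counts was not tested.

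Wide gains outside the top list, chosen after their values were seen, included sites near Tcp10c (206 and 152 against 33.3 and 29), Clec2d (540 and 668 against 135 and 126) and one in Zc3hav1, an antiviral protein (644 and 612 against 142 and 131). All 3 were gained again at 8 and 24 w.p.i. At Tcp10c the 8 w.p.i. values over chr17:13488801-13493200 were 209, 197 and 115 against 16.6, 0 and 20.0, and the groups did not overlap.

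At a site between protein-coding genes, nearest to but outside Cd69, an early activation antigen, and chosen after its values were seen, the mark and H3K27ac went opposite ways in the same mice. H3K9me3 over chr6:129231651-129236750 was 191 and 197 in Daxx-KO against 28 and 18.6 in WT, and H3K27ac over chr6:129232401-129237100 was 328 and 484 against 1483 and 959. H3K9me3 was gained there again at 8 w.p.i. (67.8, 38.6 and 64.2 against 6.32, 0 and 9.99) and at 24 w.p.i. (358 and 351 against 46.6 and 16.9). Groups overlapped in none of these libraries.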

How the data were processed

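CUT&Tag libraries for H3K9me3 from 2 Daxx-KO and 2 WT mice at 3 w.p.i. were analysed from the table of changed regions. Per the labels, reads were processed with CASAVA 1.8.4, cutadapt 1.13 and STAR 2.5.3 on mm10, and per the file headers the authors ran diffReps 1.55.6 (negative binomial test, 600-base windows, step of 50) and joined passing windows. How reads with several matches were treated is not given in the sources used here. The normalized counts deposited by the authors are the reads of a site divided by a constant per library, and give whole reads back in 92.2 to 100% of values, within 0.2 of a read. The deposited columns of group averages, log2 fold changes, p-values, adjusted p-values and event labels hold the authors' own comparison and were not used.

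Directions, gaps, overlaps (at least 1 bp), annotation with GENCODE M21, base composition of GRCm38 and shared words were computed with Python 3.11.15, numpy 2.4.6 and pandas 2.3.3, and the functions were tested on simulated data. A group at 0 was set to 3 reads per library for ratios. Genome shares came from 3992834 windows without unknown bases, or 1 in 20 of them for annotation. The members and gene lists were chosen with earlier results of these data known. Named were the 6 best separated gained and 6 lost sites, 1 per nearest gene, the 10 genes and 5 bins of 1 Mb with the most sites of each direction, the 3 longest runs of each direction, for each gene list the 3 genes with the most sites of each direction or some of them, and the loci of Daxx, Spi1, Fbp1 and Fbp2. The same functions read the tables of H3K9me3 at 8 and 24 w.p.i. and of H3.3, Pu.1 and H3K27ac at 3 w.p.i., 6 tables in all. Tables were normalized separately, so levels were compared within a table only. No test was made on the sites, since only regions that passed are listed and 2 libraries stand against 2. Labels give 1 mouse per library.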

Additional observations from a re-analysis of the deposited data

Results flagged for a closer look

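Some sites changed direction between times, in other mice, and the difference was not tested. At 8 w.p.i., 1400 sites gained at 3 w.p.i. overlapped a lost site and 608 lost sites overlapped a gained one. At 24 w.p.i. the counts were 4384 and 1086, and the former exceeded the 3629 gained sites that were gained again. The gained sites that were lost at 24 w.p.i. had a median GC content of 40.7% and a median gap of 9.71 normalized counts, against 43.5% and 10.5 for those gained again. The lost sites that were gained at 24 w.p.i. had 49.7% GC and 36.1% masked bases, against 47.5% and 62.2% for those lost again.

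Imprinted loci were among the lost sites that were gained at 24 w.p.i. At Nnat the Daxx-KO libraries lay below the WT libraries at 3 w.p.i. and above them at 24 w.p.i., where Daxx-KO replicate 1 held 356.4 normalized counts. At the Igf2r site in the Airn intron, where the order turned in the same way, that library held 116.67. No site was listed at either locus at 8 w.p.i., and the time points were normalized separately.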

How the results depend on the processing

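No paired analysis was possible because the results come from no test. Gained sites outnumbered lost ones under every alternative run on the whole list. At single gene lists the majority turned to losses with a mean of at least 20 normalized counts in the higher group for zinc-finger genes (232 gained and 256 lost) and haematopoietic transcription factor genes (1 and 2), and in gene bodies alone for immunoglobulin segments (3 and 6). It became a tie with a mean of at least 20 for T-cell receptor segments (6 and 6) and H3K9 methylation and H3.3 chaperone genes (2 and 2), and with scaling by mean reads for serpins (14 and 14). The evenly split Hox and interferon lists tipped to losses or, with joined sites at Hox genes, to gains. The counts of 45021 gained and 12058 lost sites became 15236 and 7215 with a mean of at least 20 normalized counts in the higher group, and the sites at all gene lists 791 gained and 446 lost. Counting sites in gene bodies alone left 970 and 419 at the lists. Requiring 2-fold between groups, with a group at 0 taken as passing, gave 44577 and 11434, scaling by mean reads per window 44652 and 12061, joining sites within 1 kb 41392 and 10712, and all chromosomes 48689 and 13093. Leaving out each library in turn gave 45079 to 45175 gained and 12058 to 12115 lost sites. The rule allows these counts only to stay or rise with fewer libraries, and the list was chosen with all libraries. They therefore cannot show how far 1 library drives the result.

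With promoters taken as 3 kb, they held 8.614% of gains and 12.69% of losses, and stretches between genes 63.4% and 58.65%; with a mean of at least 20 the latter were 67.4% and 62.97%. Among gained sites with a counterpart at 8 w.p.i., 83.93% were gained again with a mean of at least 20 and 73.34% with scaling by mean reads. Lost sites were lost again in 86.74%, 82.88%, 75.83% and 80.5% with a mean of at least 20, scaling by mean reads, joined sites and an overlap of at least 50%. At 24 w.p.i., with 2-fold, a mean of at least 20, scaling by mean reads and joined sites, gained sites were gained again in 43.89%, 46.77%, 42.53% and 43.58%, and lost sites lost again in 77.96%, 78.2%, 79.07% and 73.13%.

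Settings for the other proteins and for the bands of CpG, gap and length were added after the data were seen. With a mean of at least 20, scaling by mean reads and an overlap of at least 50%, the share of H3.3 gains was 43.58%, 45.2% and 35.01% at gained and 92.16%, 90.08% and 88.56% at lost H3K9me3 sites, and that of Pu.1 gains 40.98%, 41.67% and 31.64%, and 91.82%, 89.28% and 87.07%. With 2-fold, Pu.1 at gained sites came to 34.49%. H3K27ac gains made up 60.87% and 68.66% of the gained and lost sites with H3K27ac with a mean of at least 20, so the majority at gained sites turned from 48.58%. Losses were 98.63% of sites with at least 3 CpG per 100 bases and a mean of at least 20. Of sites with a gap of at least 50, 89.31% were losses with scaling by mean reads, and 64.25% to 80.84% without 1 library, lowest without Daxx-KO replicate 1. The cause of these shifts was not tested. The cut on the mean, the 2-fold cut, the scaling and the joining of sites were also applied to the later H3K9me3 sites and to those of the other proteins. The overall shares of gains among those sites under each setting were not computed, so the shares above have no baseline at the same setting. Where both Daxx-KO libraries had no read, the depth of 1.21 to 1.58 reads per window gave only a bound.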
